A study of Rattus norvegicus with 60 samples.

Results

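The miR-181 family was followed in the rat retina after ischemia-reperfusion (IR) injury through its 4 guide strands, rno-miR-181a, rno-miR-181b, rno-miR-181c and rno-miR-181d. They were chosen by name: every rat miR on the array called miR-181 followed by 1 letter from a to d, without the star that marks a passenger strand, which gave 4 of the 350 miRs of the array. The miRs were measured on 60 single-color (Cy3) Agilent arrays, with 1 retina sample per array and 6 arrays in each of 10 groups. The animals were male Long Evans hooded rats of 250 to 300 g. In the 5 IR groups the pressure in 1 eye was raised to 110 mmHg for 60 min, and the retina was collected at once (0 h) or 2 h, 24 h, 48 h or 7d after the pressure was released. In the 5 sham control groups the same surgery was done without raising the pressure, and retinas were collected at the same times. Pentobarbital anesthesia, tetracaine and tropicamide drops and cannulation of the eye were therefore shared by all 10 groups. No animal was followed over time, and the retina was homogenized whole, so that fewer cells of a type and less of a miR per cell cannot be told apart.

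MicroRNAs are short RNAs that guide Argonaute proteins to messenger RNAs, mostly through pairing of the seed, the bases near the 5′ end. The miR-181 family is best known from immune cells, where miR-181a tunes T cell receptor signaling. In the retina it has been localized mainly to the inner layers, with amacrine cells and ganglion cells. Of these, the ganglion cells relay visual signals out of the eye. Targets described for the family include regulators of cell death and of mitochondrial turnover, which is why it is of interest after an ischemic insult. Layers of the retina were not separated here, so the place of the signal within the retina was not tested. The comparisons below address whether the level of each member differed between IR and sham control retinas, and how such a difference depended on the time post-IR.

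The mature sequences of the 4 members are shown because they carry what the family shares and what the probes had to tell apart. They are RefSeq sequences on the rat build GRCr8, written 5′ to 3′ with the seed, bases 2 to 8, in capitals.
rno-miR-181a: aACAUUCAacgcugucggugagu
rno-miR-181b: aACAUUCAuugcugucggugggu
rno-miR-181c: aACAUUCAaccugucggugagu
rno-miR-181d: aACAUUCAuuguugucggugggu
All 4 had the same seed, and of the 693 mature rat miR names in the RefSeq table these 4 were the ones with that seed. Counted from the 5′ end, rno-miR-181b differed from rno-miR-181d by a single substitution, C12U. rno-miR-181a differed from rno-miR-181b by A9U, C10U and A21G. rno-miR-181c is 22 bases long where the others have 23, and it was 1 edit away from rno-miR-181a and 5 away from rno-miR-181d. The members therefore formed a pair of near sequences, a with c, and a second pair, b with d.

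Their places in the genome pair them differently. In the RefSeq annotation rno-miR-181a lies at chr13:52037081-52037103, within the microRNA gene Mir181a-1, and a second copy at chr3:43025601-43025623 in Mir181a2. rno-miR-181b lies at chr13:52037263-52037285 in Mir181b1, close to the first copy of rno-miR-181a. rno-miR-181c lies at chr19:40888314-40888335 and rno-miR-181d at chr19:40888484-40888506, in Mir181c and Mir181d. All of these are on the plus strand. The table also lists a second hairpin of rno-miR-181b, Mir181b2, at chr3:43026666-43026753, close to Mir181a2. So a and b lie together at both places, and c and d share a locus of their own.

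Each member was read by 2 probes of 10 spots each, and Feature Extraction summed the spots into a total signal per miR with a flag for detection. The array annotation, which uses the older build rn4, places all 8 probes over the 3′ end of their miR, with 13 to 19 bases covered. The b probes covered 13 and 14 bases, at chr13:51132723-51132735 and chr13:51132722-51132735. Over those bases rno-miR-181d differed by 1 base from rno-miR-181b, and over the 13 bases of the shorter probe the much brighter rno-miR-181a also differed by 1. The d probes covered 16 and 17 bases, at chr19:25667584-25667599 and chr19:25667583-25667599, and over them rno-miR-181b differed from rno-miR-181d by the same 1 base. The a probes covered 14 and 15 bases and the c probes 18 and 19. Compared over 3′ ends of equal length, every other member differed there by 2 edits or more. Over their whole length, however, rno-miR-181a and rno-miR-181c are only 1 edit apart. That edit is a base missing from rno-miR-181c, which a comparison of equal lengths counts as more than 1 edit. How far the probes bound the other members was not tested. No spot of any of these probes was saturated on any of the 60 arrays.

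Detection separated the members. rno-miR-181a and rno-miR-181b were detected on all 60 arrays. rno-miR-181c was detected on 54 arrays and rno-miR-181d on 49, in both cases on all 30 sham control arrays. The arrays that missed them were IR arrays: rno-miR-181c was detected on 4 of 6 at 24 h and 2 of 6 at 7d, and rno-miR-181d on 5 of 6 at 0 h, 2 of 6 at 24 h, 4 of 6 at 48 h and 2 of 6 at 7d. A member that was not detected still had a measured signal, which was kept.

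The arrays differed in brightness, and brightness moved with IR. Brightness is the log2 of an array's upper quartile (75th percentile) of total signal, taken over 57 miRs that no array missed, a and b among them, and it was used to bring the arrays to one scale. At 24 h it averaged 8.27 ± 0.57 (SD, n = 6) in IR and 10.43 ± 0.35 in sham control, and at 7d 8.16 ± 0.47 and 10.74 ± 0.24. At 2 h the means were 9.84 ± 0.58 and 9.80 ± 0.41. The number of miRs detected per array ran from 59 to 232. Arrays lay on 9 slides and were scanned in 3 sets. Each set held both treatments, but no slide held IR and sham control arrays of the same time point. One array stood apart, sham control 48 h replicate 1, whose log2 signals correlated with those of the other arrays of its group at 0.918 on average over the 159 miRs tested, against 0.930 to 0.992 for the other 59 arrays. Differences between IR and sham control at 48 h are given with and without it. Replicates here are separate animals as far as the labels tell.

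Markers of the retina were present in all groups. The photoreceptor miRs miR-183, miR-96 and miR-182 were detected on all 60 arrays, as were the neuronal miR-124 and miR-9, with miR-128 on 57. From 24 h on, when a and c were lower, miR-128 was lower in IR too, by -0.44, -0.33 and -0.78 at 24 h, 48 h and 7d (adjusted p = 0.00924, 0.0491 and 1.17e-05). miR-9 (-0.37, adjusted p = 0.0376) and the endothelial miR-126 (-0.52, adjusted p = 0.00496) were lower at 24 h, miR-182 was lower at 48 h (-0.38, adjusted p = 0.00132), and miR-183 was higher at all 3 times (0.40, 0.25 and 0.31, adjusted p = 0.000245, 0.0203 and 0.00251). miR-124 did not pass at any time. Of the pigment epithelium list, miR-204 was lower in IR at 24 h (-0.27, adjusted p = 0.0264) and miR-211 did not pass at any time. miR-184 was lower at 7d (-3.34, adjusted p = 0.00713), when no IR array detected it. The part of these cell types in the miR-181 results was not tested. The leukocyte list had 4 of its 5 miRs on the array, of which miR-142-3p and miR-142-5p were detected on no array, miR-146a on 1 and miR-223 on 16. The summed scaled signal of the leukocyte list ran from 30.5 to 106 in IR and from 2.71 to 17.9 in sham control at 24 h. The part of leukocytes in the results below was not tested.

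Signals were scaled by brightness, raised to a floor of 6.20 signal units, which no array of the 4 members reached, and taken to log2. The level of rno-miR-181a ranged over 1.84 log2 units on the 60 arrays, that of rno-miR-181b over 1.65, that of rno-miR-181c over 1.70 and that of rno-miR-181d over 2.05. Within groups the pooled SD was 0.21, 0.18, 0.19 and 0.27 for a, b, c and d. Every value is drawn in the plot of member signals by group.

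**Figure D1:**
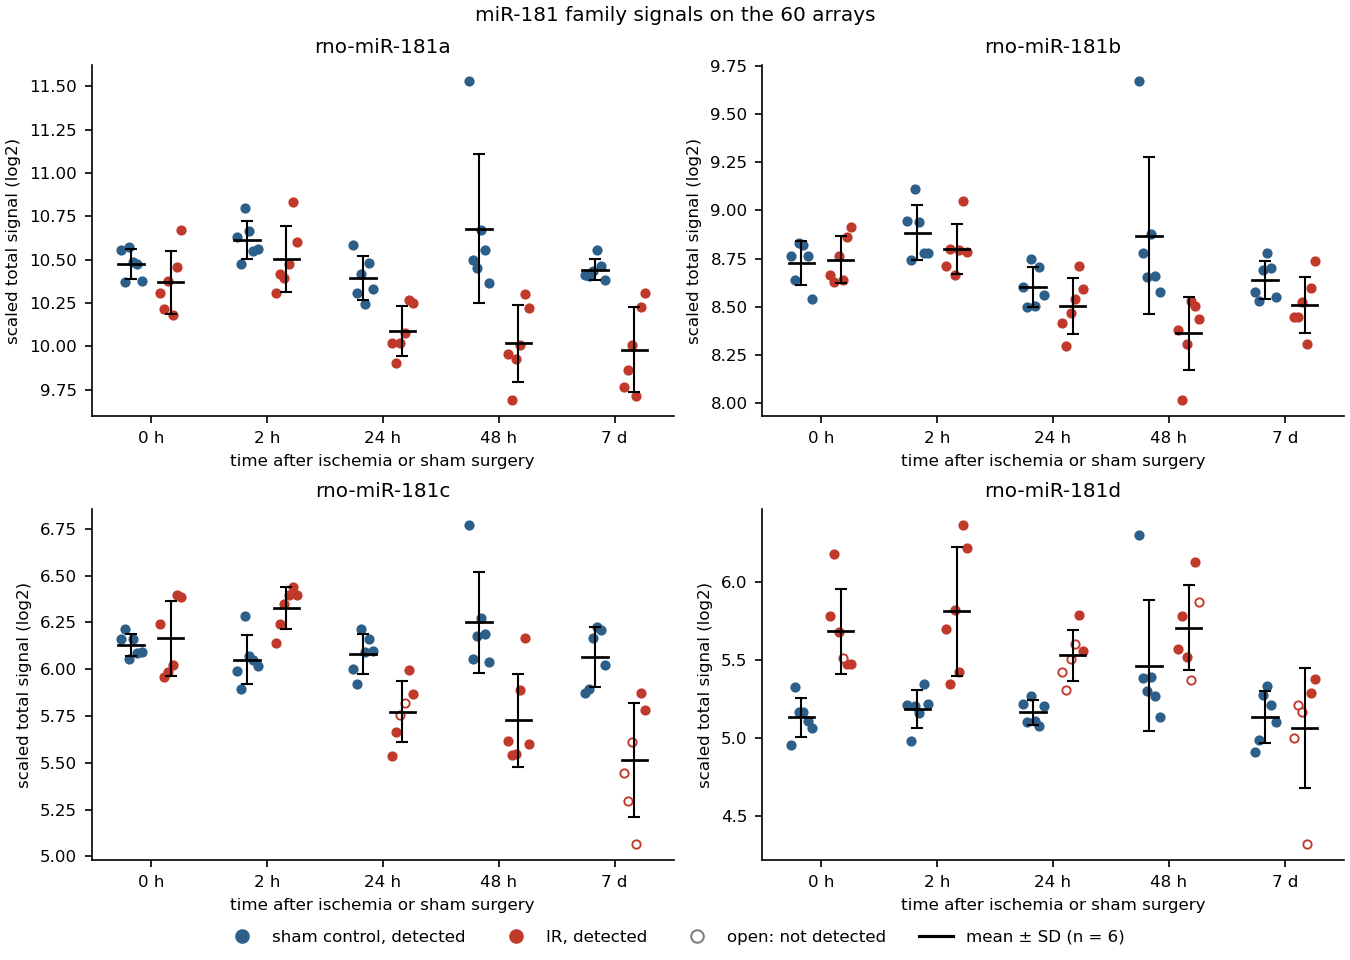
Scaled total signal (log2) of the 4 miR-181 members on each of the 60 arrays, by time, with sham control in blue, IR in red, open points for arrays on which the miR was not detected, and bars for the mean ± SD of 6 arrays. At 48 h all IR points lie below all sham control points in the a and b panels and all but 1 in the c panel, in the d panel IR points lie above them at 0 h and 24 h, and 1 sham control array at 48 h lies above the others in all 4 panels.

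The order of the 10 groups differed between members. For rno-miR-181a the 3 lowest group means were IR 24 h (10.09), IR 48 h (10.02) and IR 7d (9.98). IR 24 h lay 0.28 below the next group, IR 0 h at 10.37, more than the larger SD of the pair (0.18), and no other neighbors in the order were separated by more than their larger SD. rno-miR-181c had the same 3 groups at the bottom, IR 24 h at 5.77, IR 48 h at 5.73 and IR 7d at 5.51, and the gap above IR 24 h (0.28) was again the only one beyond the larger SD (0.16). For rno-miR-181b the means ran from 8.36 in IR 48 h to 8.88 in sham control 2 h, and no neighbors differed beyond their spread. rno-miR-181d was ordered the other way. Its 4 highest group means were IR 2 h (5.81), IR 48 h (5.71), IR 0 h (5.69) and IR 24 h (5.53), its lowest was IR 7d (5.06), and no neighbors differed beyond their spread.

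Set against sham control under the scaling used here, rno-miR-181d was higher in IR early, at 0 h, 2 h and 24 h. In contrast, rno-miR-181a and rno-miR-181c were lower in IR from 24 h to 7d and rno-miR-181b at 48 h. All of these differences were smaller than 2-fold. With limma, which was fitted to 159 miRs in 10 groups, a miR was called where IR and sham control differed 2-fold or more and the p adjusted by Benjamini-Hochberg did not exceed 0.05. By this rule 0 of the 4 members were called at any time, whereas the share of all miRs called was 6.92% at 0 h, 5.03% at 2 h, 18.2% at 24 h and again at 7d, and 13.8% at 48 h. By the adjusted p alone, 10 of the 20 comparisons passed, 3 higher and 7 lower in IR. They were 1 of 4 members at 0 h and at 2 h, 3 of 4 at 24 h and at 48 h, and 2 of 4 at 7d, where the shares of all miRs were 12.6% and 7.55%, 60.4% and 54.7%, and 59.7%. The count was 11 at an unadjusted p under 0.05 and 9 by exact two-sided permutation tests with the same adjustment. Shares of all miRs are not given for the unadjusted p or the permutation tests, here or below. No difference was over 0.66 log2 units. In the text below, a call that is held, kept, gained or lost refers to the adjusted p alone, not to the 2-fold rule. With slide as a fixed block the calls of rno-miR-181d at 0 h, 2 h and 24 h were all lost. Those at 0 h and 24 h were also lost under some scalings. In order of time the median difference of all miRs tested was 0.02, -0.01, -0.13, -0.15 and -0.15, and that of the 4 members was 0.03, 0.10, -0.20, -0.52 and -0.29.

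**Figure D2:**
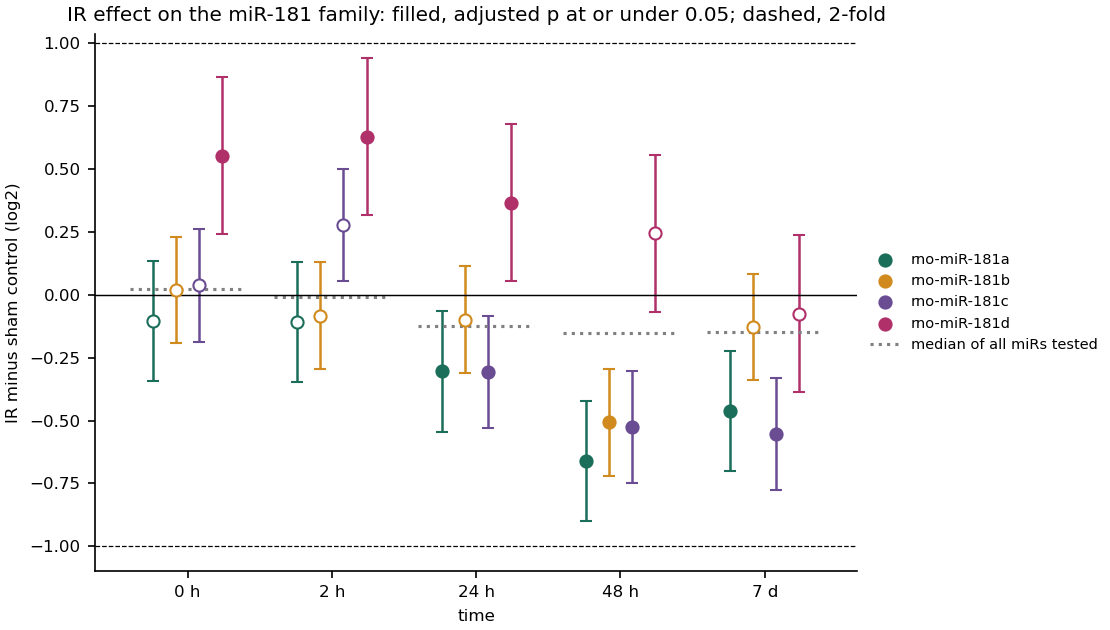
Difference between IR and sham control (log2, with 95% interval from limma, 6 arrays per group) for each miR-181 member at the 5 time points, filled where the adjusted p was at most 0.05. The dotted lines are the median of the 159 miRs tested and the dashed lines mark 2-fold, which no point reached, and rno-miR-181d lies above the dotted line at every time while a and c lie below it from 24 h on.

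rno-miR-181a, the best studied member, did not pass at the early times under the scaling used here, and passed at 0 h under others. Its log2 signal at 0 h ran from 10.18 to 10.67 in IR, median 10.34, and from 10.37 to 10.57 in sham control, median 10.48, a difference of -0.11 (adjusted p = 0.668). At 2 h the difference was also -0.11 (adjusted p = 0.822). At 24 h it was lower in IR, with a range of 9.90 to 10.27 (median 10.05) against 10.24 to 10.59 (median 10.37), and the groups overlapped slightly. The difference was -0.30 ± 0.12 (SE, adjusted p = 0.0272). This call was lost without IR 24 h replicate 2 (adjusted p = 0.0637), without sham control 24 h replicate 1 (adjusted p = 0.0630), and when the members were kept out of the set that fixed the scale (adjusted p = 0.0585).

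At 48 h and 7d rno-miR-181a was lower in IR again. The 6 IR arrays at 48 h lay between 9.69 and 10.30 (median 9.98) and the 6 sham control arrays between 10.36 and 11.53 (median 10.53), so the groups did not overlap. The difference was -0.66 ± 0.12 (SE, 95% interval -0.90 to -0.42), a fold of 0.633 (adjusted p = 9.56e-06). Without sham control 48 h replicate 1 it was -0.49 (adjusted p = 4.39e-05). At 7d the ranges were 9.71 to 10.31 in IR (median 9.94) and 10.38 to 10.56 in sham control (median 10.42), again with no overlap, and the difference was -0.46 ± 0.12 (adjusted p = 0.000908). IR arrays lay below all sham control arrays for 8.81% of miRs tested at 48 h and for 26.4% at 7d. By the adjusted p, 35.8% of miRs were lower at 24 h, 35.2% at 48 h and 39.6% at 7d.

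rno-miR-181b, whose gene lies next to that of rno-miR-181a, passed at 1 time point under the scaling used here and at 0 h, 24 h and 7d under others. Its differences were 0.02 at 0 h, -0.08 at 2 h, -0.10 at 24 h and -0.13 at 7d, with adjusted p between 0.296 and 0.918. At 48 h its signal ran from 8.02 to 8.53 in IR (median 8.41) and from 8.57 to 9.67 in sham control (median 8.72), with no overlap, as for 8.81% of miRs tested. The difference was -0.51 ± 0.11 (SE, adjusted p = 7.38e-05), and -0.35 without sham control 48 h replicate 1 (adjusted p = 0.000415). The shift of rno-miR-181b from 24 h to 48 h (-0.41, adjusted p = 0.204) and that from 48 h to 7d (0.38, adjusted p = 0.129) did not pass the test of the difference itself.

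rno-miR-181c, the member nearest in sequence to rno-miR-181a, differed by 0.04 at 0 h (adjusted p = 0.905). At 2 h its IR arrays ran from 6.14 to 6.44 (median 6.37) and its sham control arrays from 5.90 to 6.29 (median 6.03), a difference of 0.28 ± 0.11 that did not pass (adjusted p = 0.200). At 24 h IR ran from 5.54 to 6.00 (median 5.79) and sham control from 5.92 to 6.21 (median 6.09), with some overlap, and the difference was -0.31 ± 0.11 (adjusted p = 0.0174). This call was lost without IR 24 h replicate 1 (adjusted p = 0.0509) and with brightness as a covariate (adjusted p = 0.294). The change between these times was itself past the test: the IR effect at 24 h was 0.58 log2 units below that at 2 h (adjusted p = 0.00418), which 23.9% of all miRs tested also passed.

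The fall of rno-miR-181c lasted to the end of the series. At 48 h IR ran from 5.54 to 6.16 (median 5.61) and sham control from 6.04 to 6.77 (median 6.18), with an overlap of the highest IR array. The difference was -0.52 ± 0.11 (adjusted p = 8.70e-05), and -0.42 without sham control 48 h replicate 1 (adjusted p = 0.000801). At 7d IR ran from 5.07 to 5.872 (median 5.53) and sham control from 5.875 to 6.22 (median 6.10), which narrowly did not overlap, as for 26.4% of miRs tested. By the adjusted p, 35.8%, 35.2% and 39.6% of miRs tested were lower in IR at 24 h, 48 h and 7d. The difference of rno-miR-181c at 7d was -0.55 ± 0.11 (95% interval -0.77 to -0.33, adjusted p = 3.77e-05), and the 4 IR arrays on which it was not detected were the 4 lowest.

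rno-miR-181d was higher in IR from the first time point. At 0 h its 6 IR arrays ran from 5.48 to 6.18 (median 5.60) and its 6 sham control arrays from 4.95 to 5.33 (median 5.14), so the groups were apart with IR on top, which was so for 4.4% of miRs tested. The difference was 0.55 ± 0.16 (SE, adjusted p = 0.00936), and 10.7% of miRs tested were higher by the adjusted p. Without IR 0 h replicate 2 it was 0.45 (adjusted p = 0.0569). At 2 h IR ran from 5.35 to 6.37 (median 5.76) and sham control from 4.98 to 5.35 (median 5.21), with the lowest IR array just under the highest sham control array. The difference was 0.63 ± 0.16, a fold of 1.54 (adjusted p = 0.00475), where 7.55% of miRs tested were higher. The exact permutation test did not pass there (adjusted p = 0.0765).

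At 24 h rno-miR-181d ran from 5.31 to 5.79 in IR (median 5.53) and from 5.08 to 5.27 in sham control (median 5.16), again without overlap, which 17% of miRs tested shared. The difference was 0.37 ± 0.16 (adjusted p = 0.0401, with 24.5% of miRs higher), and it was detected on only 2 of the 6 IR arrays. Leaving out any 1 of 7 arrays put the adjusted p between 0.0551 and 0.0858. At 48 h the difference of 0.24 (adjusted p = 0.188) did not pass, and without sham control 48 h replicate 1 it was 0.41 (adjusted p = 0.0133). At 7d IR ran from 4.32 to 5.38 and sham control from 4.91 to 5.34, and the difference was -0.08 (95% interval -0.39 to 0.24, adjusted p = 0.692).

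The calls of rno-miR-181d were lost when slide was fitted as a fixed block, though its differences kept their sign. They were 0.43 at 0 h, 0.45 at 2 h and 0.27 at 24 h, with adjusted p of 0.276, 0.387 and 0.455. In contrast, every call of a, b and c held with that block. Slide and treatment could be separated there only through the 2 slides that held arrays of both treatments. Within the 3 scan sets, whose groups held 1 to 3 arrays each, rno-miR-181d was higher in IR in every set at 0 h (0.73, 0.35 and 0.41), at 2 h (0.43, 0.44 and 1.01) and at 24 h (0.20, 0.48 and 0.35). rno-miR-181a and rno-miR-181c were lower in IR in every set at 24 h, 48 h and 7d. At 48 h the difference of rno-miR-181a was -1.19, -0.59 and -0.20 in the 3 sets, with sham control 48 h replicate 1 in the first.

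A muscle miR was higher in IR at the times when rno-miR-181d was, and also at the other times. Of the 4 miRs of the muscle list, miR-133a was detected on no array, miR-133b on 7, miR-1 on 11 and miR-206 on 57. Only miR-206 was among the miRs tested. From 0 h to 7d, 2, 2, 3, 2 and 3 miRs of the list were detected on no IR array. In sham control these counts were 1, 2, 1, 1 and 1, so the list did not move as a whole with miR-206. miR-206, a miR of skeletal muscle, was higher in IR at every time, by 2.04 log2 units at 0 h (adjusted p = 0.000310) and 2.33 at 2 h (adjusted p = 8.00e-05). It was also higher at 24 h (1.91), 48 h (1.96) and 7d (1.34, adjusted p = 0.00577), the last 2 being times at which rno-miR-181d did not pass. The summed scaled signal of the list ran from 122 to 386 in IR and from 6.44 to 158 in sham control at 0 h, and from 74.96 to 547 and 26.8 to 74.5 at 2 h. The part of muscle tissue in the rno-miR-181d results was not tested.

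The IR effect of a member was then compared among the 5 time points with an F-test in the same fit. It differed for rno-miR-181a (adjusted p = 0.0213), rno-miR-181b (adjusted p = 0.0313) and rno-miR-181c (adjusted p = 9.16e-05), that is for 3 of 4 members, where 39% of all miRs tested passed. rno-miR-181d fell just outside (adjusted p = 0.05005). Step by step, no member passed from 0 h to 2 h, from 24 h to 48 h or from 48 h to 7d, steps that 0.629%, 0% and 3.14% of all miRs passed. At an unadjusted p under 0.05, rno-miR-181a and rno-miR-181b passed from 24 h to 48 h and rno-miR-181b from 48 h to 7d.

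In sham control retinas alone no member passed a test of change over time. An F-test among the 5 sham control groups passed for 0 of the 4 members with limma, against 5.66% of all miRs tested, and for 1, rno-miR-181b, at an unadjusted p under 0.05. The adjusted p was 0.304 for a, 0.153 for b, 0.626 for c and 0.428 for d. The widest shift from 0 h was that of rno-miR-181d at 48 h, 0.33 (95% interval 0.02 to 0.64, adjusted p = 0.296), a group that holds the array that stood apart.

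The members were also set against each other within arrays, which removes the scaling. The log2 ratio of each member to rno-miR-181a on the same array was compared between IR and sham control, and such a ratio shows unequal change, not which of the 2 miRs changed. For rno-miR-181d the ratio was higher in IR at all 5 times, by 0.66 ± 0.13 (SE) at 0 h (adjusted p = 9.34e-05), 0.74 at 2 h (adjusted p = 2.44e-05), 0.67 at 24 h (adjusted p = 2.07e-05), 0.90 at 48 h (adjusted p = 4.57e-08) and 0.39 at 7d (adjusted p = 0.01003). The shares of the other 158 miRs higher relative to rno-miR-181a were 11.4%, 7.59%, 38%, 62% and 43.7%, so from 24 h on a rise against rno-miR-181a was common.

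Relative to rno-miR-181a, and centered on the mean of all 60 arrays, rno-miR-181d at 48 h ran from 0.34 to 1.06 in IR (median 0.60) and from -0.32 to -0.14 in sham control (median -0.26). At 24 h it ran from 0.27 to 0.50 in IR (median 0.41) and from -0.44 to -0.15 in sham control (median -0.21), and at 2 h from -0.10 to 0.58 and from -0.63 to -0.23. The groups did not overlap at these 3 times, which was so for 3.16% of miRs at 2 h, 24.7% at 24 h and 22.8% at 48 h. At 0 h and 7d they overlapped. With slide as a fixed block the ratio of rno-miR-181d passed at 0 h, 2 h, 24 h and 48 h, with adjusted p between 0.000360 and 0.0201, and not at 7d (adjusted p = 0.0980). Without sham control 48 h replicate 1 the difference in ratio at 48 h was again 0.90.

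The ratio of rno-miR-181b to its neighbor rno-miR-181a was higher in IR at the later times, by 0.21 ± 0.06 (SE) at 24 h (adjusted p = 0.00468), 0.15 at 48 h (adjusted p = 0.0261) and 0.33 at 7d (adjusted p = 1.18e-05). At 7d it ran from 0.06 to 0.37 in IR and from -0.18 to -0.05 in sham control, centered in the same way, and the groups did not overlap, as for 30.4% of miRs. With slide as a fixed block the adjusted p at 24 h, 48 h and 7d was 0.0753, 0.120 and 0.00137. The call at 48 h was also lost without IR 48 h replicate 1 (adjusted p = 0.0613), IR 48 h replicate 4 (adjusted p = 0.101) or sham control 48 h replicate 5 (adjusted p = 0.0623). Without sham control 48 h replicate 1 the ratio of rno-miR-181b differed by 0.14 at 48 h (adjusted p = 0.0354). The ratio of rno-miR-181c was higher in IR at 2 h (0.38 ± 0.09, adjusted p = 0.00121) and differed by 0.00 at 24 h (95% interval -0.18 to 0.17). At 48 h and 7d the ratio of rno-miR-181c differed by 0.14 (-0.04 to 0.31) and -0.09 (-0.26 to 0.08), and by 0.07 at 48 h without sham control 48 h replicate 1. With normexp background correction the ratio of rno-miR-181c was 1.17, 1.52 and 1.49 higher in IR at 24 h, 48 h and 7d (adjusted p = 0.00101, 2.83e-05 and 4.26e-05), and with averaged processed signals it was -0.28 at 7d (adjusted p = 0.0304).

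**Figure D3:**
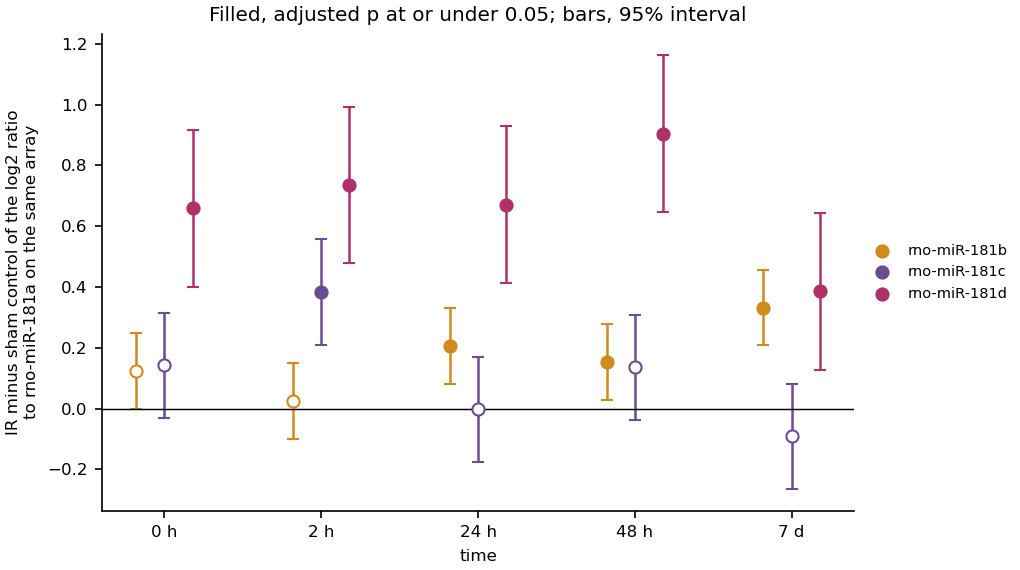
Difference between IR and sham control of the log2 ratio of rno-miR-181b, c and d to rno-miR-181a on the same array, with 95% intervals from limma (6 arrays per group), filled where the adjusted p was at most 0.05. The d points lie above 0 at all 5 times, the b points are filled at 24 h, 48 h and 7d, and the c point is filled at 2 h.

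Both probes of a member were read separately to see whether they gave the same direction. For rno-miR-181a the 2 probes gave -0.69 and -0.65 at 48 h and -0.50 and -0.45 at 7d. For rno-miR-181b they gave -0.50 and -0.51 at 48 h. The probes of rno-miR-181c agreed in sign from 2 h on but not in size, with -0.43 for the probe of 19 bases and -0.92 for the probe of 18 bases at 7d. Of these, the shorter had no spot well above background on 21 of the 60 arrays and the longer on 6. For rno-miR-181d the probe of 16 bases gave 0.72, 0.84 and 0.53 at 0 h, 2 h and 24 h, and the probe of 17 bases 0.45, 0.50 and 0.25. These probes had no spot well above background on 23 and 13 arrays.

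**Figure D4:**
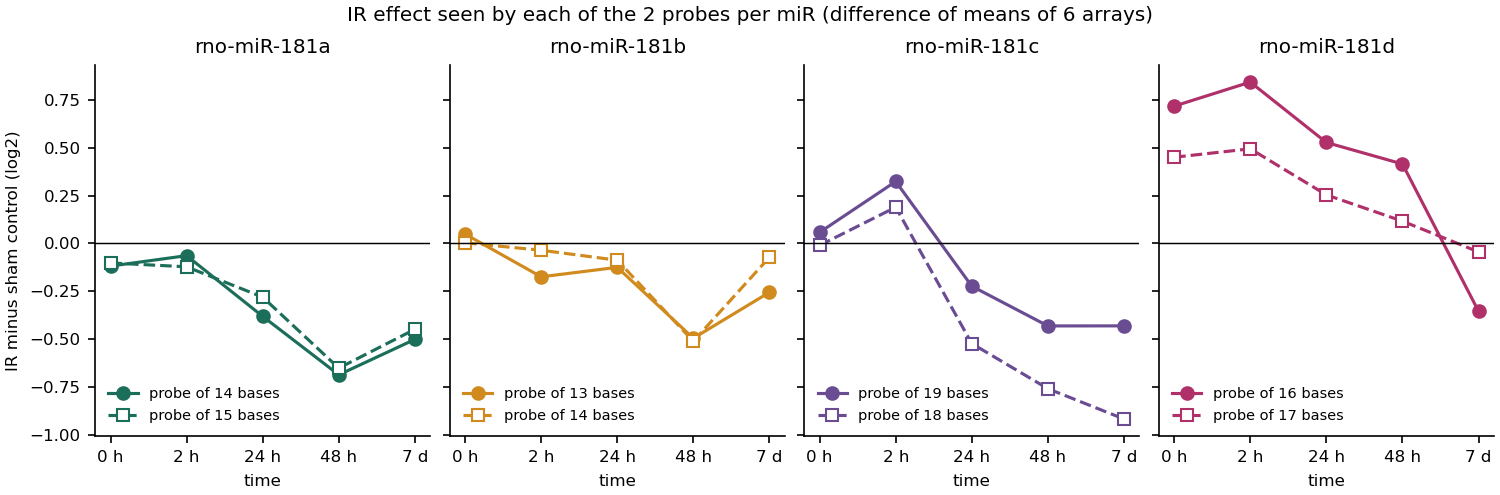
Difference of the mean scaled log2 signal between IR and sham control (6 arrays per group) for each of the 2 probes of each miR-181 member, labelled by the number of bases the probe covers. The a and b probes run together, the c probes part from 24 h on, and both d probes lie above 0 from 0 h to 48 h.

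The scaling decided the sign of some differences, and the plot of scalings gives the values under 7 of them. With no normalization between arrays all 4 members were lower in IR at every time but 2 h, with differences of -2.46, -2.25, -2.46 and -1.79 for a, b, c and d at 24 h, while the median of all miRs tested moved by -2.03. At 7d that median was -2.50. With normexp background correction the median at 24 h, 48 h and 7d was 0.87, 0.84 and 1.15, and rno-miR-181c turned to 0.66, 0.58 and 0.94, with adjusted p of 0.0228, 0.0433 and 0.00125 in the opposite direction. The calls of rno-miR-181d were lost under some scalings: at 0 h the adjusted p was 0.133 with the percentile over all miRs, 0.370 with quantile normalization and 0.157 in the authors' table. Its difference at 24 h was 0.05 with the percentile over all miRs, 0.14 with scaling to the median, 0.06 with quantile normalization and 0.01 in the authors' table, with adjusted p of 0.725, 0.396, 0.753 and 0.939. The 24 h call of rno-miR-181d held in 11 of 20 alternatives, among them the fit with no normalization, where the sign was negative. rno-miR-181b, in contrast, gained a call at 24 h under the same 4 scalings, with -0.41, -0.33, -0.39 and -0.45 (adjusted p = 0.000557, 0.00537, 0.00126 and 0.000361), and at 7d with the percentile over all miRs (-0.33, adjusted p = 0.00564) and in the authors' table (-0.38, adjusted p = 0.00258). At 0 h rno-miR-181a gained a call, lower in IR, under 4 of 21 alternatives. These were normexp, the percentile over all miRs, no normalization and the authors' table. rno-miR-181b also gained a call at 0 h, lower in IR, under the last 3 of these.

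Taken relative to the median of all miRs tested under the same setting, the members kept their sides more often. rno-miR-181d was above that median at 0 h, 2 h, 24 h and 48 h under all 21 settings, by 0.28 to 0.56, 0.19 to 0.75, 0.16 to 0.54 and 0.17 to 0.41 in that order. rno-miR-181c was below it at 24 h, 48 h and 7d under all 21 settings, by -0.43 to -0.14, -0.52 to -0.25 and -0.59 to -0.21. rno-miR-181a was below it at 48 h under all 22 settings (-1.77 to -0.48) and at 7d under 21 of 22, with quantile normalization at the median (0.000537). rno-miR-181b was below it at 48 h under all 22 settings (-1.23 to -0.32) and had no constant side at 24 h or 7d. These counts include repeats. Blocking on replicate or scan set, fitting only the compared groups and permuting arrays change the test, and leave the difference and the median as in the main fit.

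**Figure D5:**
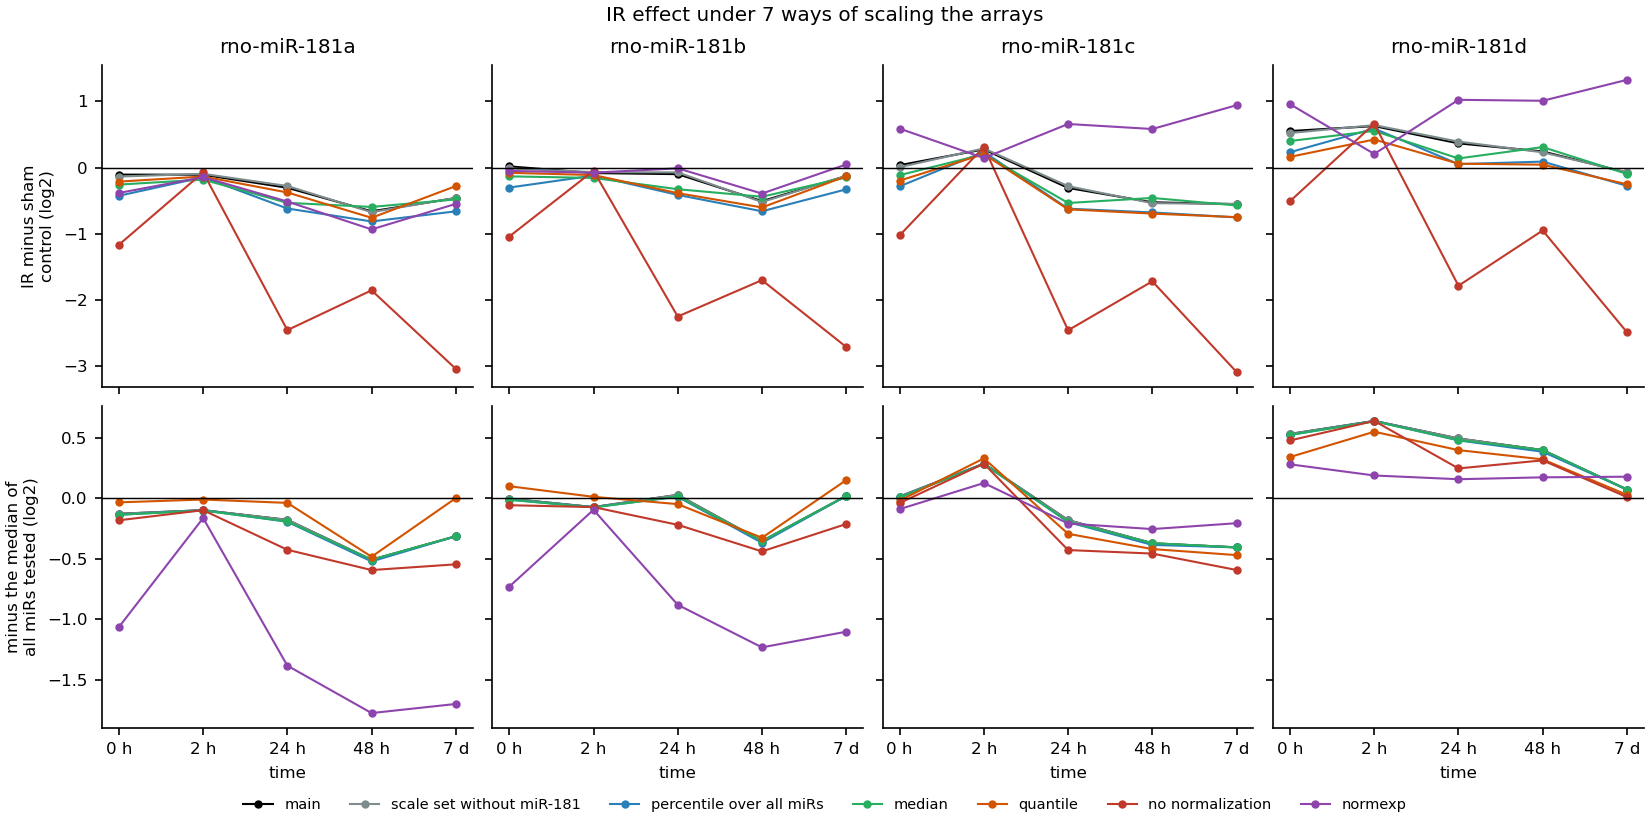
Difference between IR and sham control (log2, means of 6 arrays per group) of each miR-181 member over time under 7 ways of scaling the arrays (top), and the same after subtraction of the median of all miRs tested under that scaling (bottom). Without normalization all members sink at 24 h, 48 h and 7d in the top row, and in the bottom row rno-miR-181d stays above 0 at all times from 0 h to 48 h under each of the 7.

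Members also differed in which miRs they resembled. Over the 60 arrays, which share the scaling and the 10 groups, the log2 signals of rno-miR-181a and rno-miR-181b had Pearson r = 0.915, and no other miR of the 159 tested was nearer to rno-miR-181a. rno-miR-181a and rno-miR-181c had r = 0.845. rno-miR-181d stood away from the family, with r = 0.222 to a, 0.248 to b and 0.372 to its locus partner c, and 61 of the miRs tested were nearer to rno-miR-181c than rno-miR-181d was. After subtraction of the group means, however, r between a and d was 0.618 and that between c and d 0.551, both higher than over the 60 arrays. Members on an array share its scaling. These values also include sham control 48 h replicate 1, the highest array of its group for all 4 members, and were not computed without it.

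Outside the family, the 3 miRs with the highest r to rno-miR-181a were miR-30a (0.869), miR-127 (0.865) and miR-361 (0.850). For rno-miR-181b they were miR-127 (0.799), miR-30a (0.793) and miR-210 (0.775), the last known as a miR induced by low oxygen. For rno-miR-181c they were the passenger strand rno-miR-181a* (0.806), miR-30a (0.789) and miR-127 (0.787). The list of rno-miR-181d held none of these and consisted of miR-382 (0.878), miR-333 (0.806) and miR-206 (0.746). These were detected on 43, 40 and 57 arrays, and rno-miR-181d itself on 49. Each miR named for a and b was detected on 59 or 60 arrays.

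By position the passenger strand rno-miR-181a* comes from the hairpin Mir181a-1, whereas rno-miR-181a comes from Mir181a-1 and Mir181a2. A ratio of the 2 strands is therefore not a comparison within 1 hairpin. The passenger strand was detected on 43 arrays, of which 30 were sham control and 13 IR. At 48 h it ran from 4.30 to 5.46 in IR (median 4.43) and from 5.48 to 6.26 in sham control (median 5.61), without overlap, as for 8.81% of miRs tested. The difference of -1.09 ± 0.21 (SE, adjusted p = 2.74e-05) passed the 2-fold rule that no guide strand passed. Without sham control 48 h replicate 1 it was -0.98 (adjusted p = 0.000191), just under 2-fold. At 7d the difference was -1.48 (adjusted p = 1.04e-07), with detection on 1 of 6 IR arrays. At 24 h it was detected on no IR array, so only a bound holds, and under the scaling used here it was at least 1.45-fold lower in IR than in sham control. The adjusted p of 0.000126 by limma belongs to the measured difference of -0.98, not to the bound. That difference did not pass with brightness as a covariate (-0.51, adjusted p = 0.213). With normexp background correction it was 0.79, higher in IR (adjusted p = 0.0185). Relative to rno-miR-181a the passenger strand was lower in IR at 48 h (-0.43, adjusted p = 0.0261) and 7d (-1.02, adjusted p = 2.27e-06), where 1.9% and 10.8% of miRs were lower. The ratio at 48 h was -0.49 without sham control 48 h replicate 1 (adjusted p = 0.0189), and its call was lost without IR 48 h replicate 3 (adjusted p = 0.0612) or replicate 6 (adjusted p = 0.0881). With brightness as a covariate the differences at 48 h and 7d were -0.83 (adjusted p = 0.00295) and -0.92 (adjusted p = 0.0280), both under 2-fold. With normexp background correction the passenger strand was higher in IR, by 0.73 at 48 h (adjusted p = 0.0294) and 1.05 at 7d (adjusted p = 0.00165).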

How the data were processed

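The deposited scanner files hold spot intensities that, per the file headers, the authors extracted with Agilent Feature Extraction 9.5.3.1 (array design 019159), which subtracted background and summed the spots of a miR into a total signal. According to the labels 100 ng of total RNA with integrity numbers above 8 was labeled per array. The deposited intensities were not normalized between arrays. A second file deposited by the authors gives log2 values of 211 rat miRs, made with GeneSpring by scaling to the 75% quantile, and was an alternative only. The medians of its columns ran from -0.93 to -0.48.

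Arrays were brought to a common 75th percentile, computed from the total signals of 57 miRs that every array detected. The floor of 6.20 is the median over arrays of the lowest detected scaled signal. Tests covered the 159 miRs that 1 group or more detected on each of its 6 arrays. They used limma 3.58.1 (R 4.3.3) on all arrays, with 10 groups, contrasts of IR minus sham control per time point, and Benjamini-Hochberg adjustment over all miRs tested. Exact two-sided permutation tests of 6 against 6 arrays have a smallest p of 0.00216. Ratios to rno-miR-181a were fitted in the same way. The fit was tested on simulated data. Plots and sequence comparison used Python 3.11.15 with matplotlib 3.10.9. The number of arrays limits the precision.

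The members, the marker lists and the tests were chosen with earlier results of these data known. The text names the 4 members, their passenger strand, for each member the 3 tested miRs outside the family with the highest Pearson r over the 60 arrays, and the markers. The marker lists were photoreceptor (miR-183, miR-96, miR-182), neuron (miR-124, miR-9, miR-128), endothelium (miR-126), pigment epithelium (miR-204, miR-211, miR-184), leukocyte and muscle. miR-126 was detected on 48 arrays, miR-204 and miR-211 on 60 and miR-184 on 33. All 4 members matched the RefSeq table by name with the suffix 5p. No group was left out.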

Additional observations from a re-analysis of the deposited data

Results flagged for a closer look

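In 6 of the 40 groups of 6 arrays that the members give, 1 array lay far from the other 5, where chance gives such a gap in about 1 of 20 groups. In 4 of the 6 cases it was sham control 48 h replicate 1, with 11.53 for rno-miR-181a against 10.36 to 10.67 for the other 5 arrays, 9.67 for rno-miR-181b against 8.57 to 8.88, 6.77 for rno-miR-181c against 6.04 to 6.27, and 6.30 for rno-miR-181d against 5.14 to 5.39. On this array 70 of the 159 miRs tested had the highest value of the group. The other cases were rno-miR-181b at 9.05 in IR 2 h replicate 5, against 8.67 to 8.80, and rno-miR-181d at 4.32 in IR 7d replicate 4, against 5.00 to 5.38. IR 2 h replicate 5 was the highest array of its group for all 4 members.

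The IR effect differed among the 5 time points for rno-miR-181a (adjusted p = 0.0213), rno-miR-181b (adjusted p = 0.0313) and rno-miR-181c (adjusted p = 9.16e-05) by the F-test in limma.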

How the results depend on the processing

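Over the settings tried for the 20 member differences, 347 values kept their direction and side of the threshold, 19 lost and 16 gained significance, and 28 changed sign. Some of these settings change only the test, so they could not change a sign. The falls of a and b at 48 h and of a at 7d kept direction and call under every alternative, leaving out each array included; those of c at 48 h and 7d did so except with normexp. Signals limit c and d, which many IR arrays did not detect, and the cause of each change below was not tested. All counts are out of 4 members. The share of all miRs passing under the same alternative is not given, so no count below can be read as particular to the members. With no normalization the median difference of all miRs tested was itself -0.98, -2.03, -1.26 and -2.50 at 0 h, 24 h, 48 h and 7d.

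With no normalization between arrays, 3, 4, 3 and 4 members passed the 2-fold rule at 0 h, 24 h, 48 h and 7d, 3, 0 and 4 the adjusted p alone at 0 h, 2 h and 7d, b, c and d at 0 h were -1.04, -1.02 and -0.51, and d was -1.79 at 24 h and -0.95 at 48 h. With normexp, 1 member passed the 2-fold rule at 24 h, 48 h and 7d, 2 and 0 the adjusted p alone at 0 h and 2 h, 1 the test among time points, and 3 and 0 the ratio to rno-miR-181a at 0 h and 2 h. There c was 0.66, 0.58 and 0.94 at 24 h, 48 h and 7d, b was -0.050 at 0 h and 0.048 at 7d, and d was 1.33 at 7d.

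At 0 h the near-zero differences of b and c turned negative in many settings. They were -0.30 and -0.28 with the percentile over all miRs, -0.079 and -0.20 with quantile normalization, -0.13 and -0.11 with scaling to the median, -0.12 and -0.16 with processed signals averaged over probes, -0.11 and -0.081 with slide as a fixed block, and -0.29 and -0.27 in the authors' table. For b alone it was -0.011 with the scale set without the members, -0.0097 with slide as a random block and -0.095 with brightness as a covariate. d was -0.097 at 48 h with averaged processed signals and 0.092 at 7d with brightness as a covariate.

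By the adjusted p alone the count at 0 h became 3 with the percentile over all miRs, 2 in the authors' table and 0 with quantile normalization or slide as a fixed block. At 2 h it became 0 with slide as a fixed block or permutation tests and 2 when only the compared groups were fitted, at 24 h 1 with brightness as a covariate, and at 7d 4 in the authors' table. The test among time points passed for 1 member with scaling to the median. Relative to rno-miR-181a, slide as a fixed block left 1 member at 24 h, 48 h and 7d. Keeping only miRs detected on all 60 arrays removes c and d, which leaves 0, 0, 1 and 1 members at 0 h, 2 h, 24 h and 7d, and 0 or 1 for the ratios.

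Leaving out 1 array at a time put the count at 0 h between 0 and 1, the ratio count at 48 h between 1 and 2, b at 0 h between -0.019 and 0.041, c at 0 h between -0.0095 and 0.078, and d at 7d between -0.14 and 0.073. The replicate numbers did not pair the animals: 15 of 30 same-numbered IR and sham control arrays correlated over 0.1 in their deviations, and 7 correlated best with their own number. A replicate block left the counts at 1, 1, 3, 3 and 2 from 0 h to 7d and raised the count among time points from 3 to 4, and it changed no other call. For rno-miR-181a*, tried after seeing the data, normexp turned the differences at 48 h and 7d to 0.73 and 1.05 and the ratios to rno-miR-181a to 1.66 and 1.60.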
